A study of Mus musculus with 12 samples.

Results

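The 32 genes described here are Trp53, which encodes the transcription factor p53, 3 genes whose products restrain p53 (Mdm2, Mdm4 and Ppm1d), and 28 genes reported elsewhere as direct targets of p53. They were found by gene symbol in the deposited count table and make up 32 of the 55421 genes there. All 32 were present, and all 32 passed the filter on low counts that left 18108 genes for testing, Eda2r only through its paclitaxel libraries. They are taken in 5 groups by role: p53 and its regulators (4 genes), arrest and growth restraint (6), death (11), repair (5) and metabolism (6).

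The cells are MOC2, an established mouse line of oral squamous cell carcinoma, grown in an enriched epithelial medium. The study asked what extracellular vesicles, membrane particles shed by cells, contribute once tumour cells have become senescent. One derivative (MOC2-25 in the titles) is labelled EV-proficient and the other (MOC2-27) EV-deficient, with vesicle release blocked genetically through a gene that the labels do not name. Each was given either DMSO, the solvent control, or 600 nM paclitaxel for 48 h, a drug that stabilises microtubules and was used to induce senescence. That makes 4 groups of 3 libraries: EV-proficient DMSO, EV-proficient paclitaxel, EV-deficient DMSO and EV-deficient paclitaxel. Each EV label is carried by 1 derivative only, so the label and the derivative cannot be told apart. Nothing says whether the 3 libraries of a group came from separate cultures, so the p-values below measure the spread between these libraries, which may be technical.

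p53 is held low in unstressed cells by Mdm2, a ubiquitin ligase, and by its relative Mdm4. DNA damage and other stresses activate kinases that free p53, which then binds a DNA element made of a pair of short repeated motifs and raises transcription of genes for cell-cycle arrest, DNA repair, cell death and metabolic adjustment. Mdm2 and the phosphatase gene Ppm1d are themselves targets and close a negative feedback loop. Most of this control acts on the p53 protein, which was not measured here, and whether Trp53 is intact in these cells was not analysed here. Several of the targets also respond to other transcription factors.

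Library totals lay between 23263472 and 62955757 counts. The first principal component of log2 CPM (CPM being counts per 1000000 of scaled library size) held 54.1% of the variance and separated paclitaxel from DMSO libraries. The second held 16.4% and went against the EV labels: EV-proficient DMSO (27.2 to 36.5) lay with EV-deficient paclitaxel (34.2 to 43.5), and EV-deficient DMSO (-24.7 to -20.5) with EV-proficient paclitaxel (-64.6 to -37.9). A row named dngfr, which the authors had added to the gene table, split the libraries the same way; the abbreviation is often used for a truncated receptor that marks transduced cells, but the labels do not spell it out. It was at 8.99 ± 3.23 CPM (SD, n = 3) in EV-proficient DMSO and 10.9 ± 1.42 in EV-deficient paclitaxel, but at 2.14 ± 0.35 in EV-deficient DMSO and 3.24 ± 0.68 in EV-proficient paclitaxel. Groups are therefore named below as the libraries are labelled, and whether the labels of 1 treatment are exchanged was not tested. An exchange would change what every effect within a label, difference between labels, crossover and interaction below stands for. The mean of the paclitaxel effects over both labels does not depend on which DMSO group is paired with which paclitaxel group, and the counts by role below are drawn from it. Mitochondrial genes took 0.550% to 0.729% of the counts in DMSO and 0.846% to 1.45% in paclitaxel libraries. Its part in the differences below was not tested.

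The epithelial markers Krt8, Krt18, Epcam, Cdh1, Krt14 and Sfn were all at 48.6 CPM or more in every library, while Krt5 and Trp63, markers of basal squamous cells, had at most 8 and 11 counts in any library. The sum of these 8 markers was 5023 to 5846 CPM in DMSO and 3073 to 3825 CPM in paclitaxel libraries. In the EV-proficient and then the EV-deficient libraries, mean Krt8 went from 2196 to 895 CPM and from 1812 to 970 CPM. Krt18 went from 1274 to 1036 and from 1478 to 717 CPM, and Cdh1 from 943 to 605 and from 859 to 784 CPM. Sfn went from 162 to 121 and from 328 to 53.5 CPM. Krt14 stayed at 191 CPM in the EV-proficient libraries and went from 681 to 80.0 CPM in the EV-deficient ones. Epcam rose in both, from 407 to 816 and from 439 to 535 CPM. The 8 markers of fibroblasts, leukocytes and endothelium summed to 3.23 to 5.13 CPM in DMSO and 7.99 to 9.98 CPM in paclitaxel libraries. Of these, Pdgfra reached 4.82 CPM (group means 1.22 to 4.25 CPM and 1.77 to 4.23 CPM, DMSO to paclitaxel in each label), and Dcn, Thy1 and Pecam1, none above 1.75 CPM in a library, also had higher means with the drug in both labels. Ptprc, Itgam and Cd3e had higher means with the drug in the EV-proficient and lower ones in the EV-deficient libraries, and Cdh5 the reverse. The part of either marker group in the results was not tested. In bulk RNA, fewer cells that express a gene and less of its RNA in each cell cannot be told apart.

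Promoters of 4 members are shown, each with a match to the p53 element close to the transcription start. The 4 were chosen because they behaved differently under the drug, so that contrast comes from the choice. Bbc3, Dcxr, Mdm4, Plk3, Pltp, Tigar and Trp53 also had a match and are not shown. The sequences are RefSeq's, on GRCm38.p6, each running from 250 bases before to 50 bases after an annotated start, 5′ to 3′ on the gene's own strand. Capitals mark the 2 half-sites of the best p53 element in the window.
Ccng1 (chr11:40755237-40755536, minus strand): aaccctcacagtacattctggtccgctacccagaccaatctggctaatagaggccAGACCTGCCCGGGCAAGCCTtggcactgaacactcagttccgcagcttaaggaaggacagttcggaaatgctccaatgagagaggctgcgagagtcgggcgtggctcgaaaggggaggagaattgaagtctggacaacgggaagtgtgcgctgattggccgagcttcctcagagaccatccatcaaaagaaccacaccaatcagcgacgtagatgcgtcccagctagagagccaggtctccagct
Gadd45a (chr6:67037358-67037657, minus strand): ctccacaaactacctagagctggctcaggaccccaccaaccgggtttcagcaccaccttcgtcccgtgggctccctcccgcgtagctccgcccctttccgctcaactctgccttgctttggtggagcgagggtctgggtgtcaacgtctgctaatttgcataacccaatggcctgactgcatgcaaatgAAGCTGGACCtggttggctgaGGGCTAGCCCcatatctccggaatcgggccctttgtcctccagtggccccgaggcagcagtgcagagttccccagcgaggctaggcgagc
Sesn1 (chr10:41887189-41887488, plus strand): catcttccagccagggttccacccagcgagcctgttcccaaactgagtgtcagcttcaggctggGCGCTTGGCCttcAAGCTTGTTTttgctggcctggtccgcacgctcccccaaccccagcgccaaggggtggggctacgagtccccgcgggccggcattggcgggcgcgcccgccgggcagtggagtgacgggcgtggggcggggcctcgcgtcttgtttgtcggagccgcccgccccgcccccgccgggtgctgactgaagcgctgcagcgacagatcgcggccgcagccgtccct
Aen (chr7:78895677-78895976, plus strand): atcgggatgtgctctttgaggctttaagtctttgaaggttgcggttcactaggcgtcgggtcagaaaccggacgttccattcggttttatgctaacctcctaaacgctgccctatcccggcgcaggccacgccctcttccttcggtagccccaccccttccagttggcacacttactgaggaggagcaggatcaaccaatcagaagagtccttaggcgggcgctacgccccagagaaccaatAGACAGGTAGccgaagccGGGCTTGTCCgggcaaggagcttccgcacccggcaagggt

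The Ccng1 element has 1 mismatch to the p53 consensus, no spacer between its half-sites, and begins 195 bases before the start. The Gadd45a element has 2 mismatches and a spacer of 11 bases, and begins 61 bases before the start. The Sesn1 element, at the second of its 2 annotated starts, has 2 mismatches and a spacer of 3, and begins 186 bases before the start. The Aen element has 3 mismatches and a spacer of 8, and begins 8 bases before the first of its 2 annotated starts and 139 before the second. Under paclitaxel Gadd45a and Sesn1 rose, Aen fell and Ccng1 did not pass the test, as described below. The search used the p53 half-site, a run of 10 bases made of 3 purines, C, a pair of A or T, G and 3 pyrimidines, which reads the same way on both strands. A full element was a pair of half-sites with at most 13 bases between them, at most 3 mismatches in all and every central C and G kept. The table held 34 promoters for 24 of the members; Pmaip1, Trp53inp1, Zmat3, Tnfrsf10b, Perp, Xpc, Ddb2 and Rrm2b had no entry. A full element stood in 13 of the 34 promoters (11 members) and in 15.6% of all 32851 promoters, and a perfect half-site in 10 of the 34 (9 members) against 8.36% of all. A match in letters is a description and not a binding site, and elements of p53 targets often lie outside such a window.

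Averaged over both EV labels, paclitaxel moved 23 of the 32 members past an adjusted p of 0.05 in edgeR's quasi-likelihood test, 16 upward and 7 downward. Of all genes tested 68.4% passed, 37.1% upward and 31.3% downward. The members' share is thus close to that of all genes, and their median log2 fold change of 0.15 stands beside 0.07 for all genes. Within the labels, 22 members passed in the EV-proficient libraries (15 higher and 7 lower, against 58.2% of all genes, 31.1% higher and 27.1% lower). In the EV-deficient libraries 19 passed (11 higher and 8 lower, against 62.9% of all genes, 32.4% higher and 30.5% lower). Upper-quartile scaling, which moved the median of all genes there by 0.184 on the log2 scale, gave 15 higher and 6 lower. The set did not move as a block: log2 fold changes ran from -1.11 to 4.10 in the EV-proficient and from -1.42 to 4.18 in the EV-deficient libraries. Of the 16 members that passed in both labels, as 44.5% of all genes did, 7 rose in both, 5 fell in both and 4 moved in opposite directions. Over all genes, 84.1% of the 8066 that passed in both labels moved the same way.

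**Figure D1:**
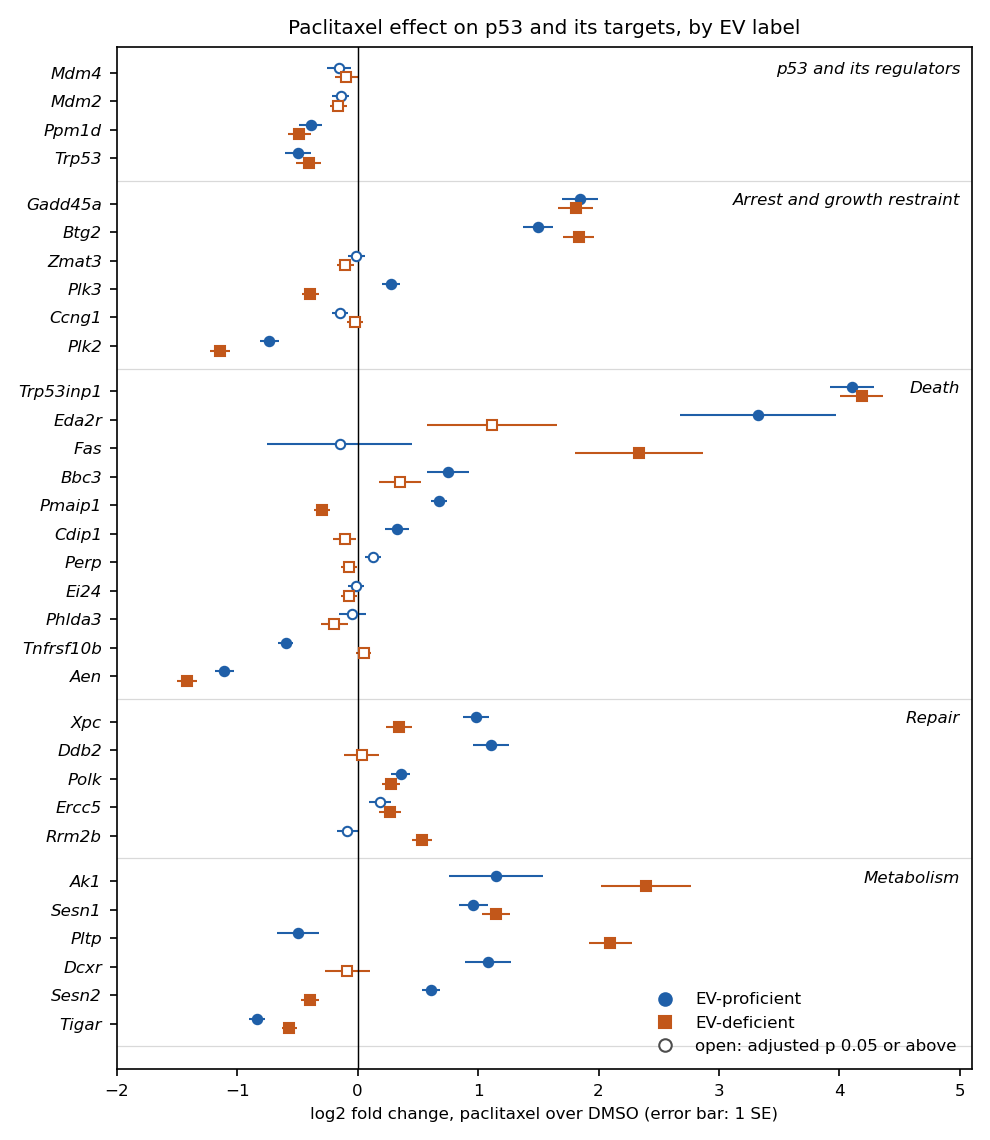
Log2 fold change of each of the 32 members, paclitaxel over DMSO, in the EV-proficient (circles) and EV-deficient (squares) libraries, by role, with 1 SE from the edgeR fit (3 libraries a group). Filled symbols passed an adjusted p of 0.05. Trp53inp1, Btg2, Gadd45a and Sesn1 lie to the right in both labels, Aen, Plk2 and Tigar to the left in both, and Pmaip1, Sesn2, Plk3 and Pltp on opposite sides of 0.

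Per unit of exon length, the members spanned a wide range of levels. Averaged over the groups, Perp (133 FPKM, that is CPM per kilobase of exon), Plk2 (90.1) and Pmaip1 (81.8) were the highest, and Eda2r (0.0636), Fas (0.312) and Ak1 (0.332) the lowest. Trp53 itself was at 6.67 on this scale, below Mdm2 at 16.0. The 3 lowest members rest on few reads: Eda2r had 0 to 42 counts in a library, Fas 2 to 128 and Ak1 8 to 112.

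Among p53 and its regulators, 3 of 4 fell in the averaged comparison and none rose, beside 31.3% and 37.1% of all genes. Trp53 (ENSMUSG00000059552, chr11:69580359-69591873, plus strand) was at 33.6, 26.5 and 30.0 CPM in the EV-proficient DMSO libraries and at 21.6, 22.8 and 19.3 CPM in the EV-proficient paclitaxel libraries. The EV-deficient libraries held 31.4, 34.4 and 31.1 CPM under DMSO and 20.4, 26.4 and 26.3 CPM under paclitaxel. Every paclitaxel library lay below every DMSO library of either label, the closest being 26.4 and 26.5 CPM. The averaged log2 fold change was -0.45 ± 0.07 SE (edgeR adjusted p = 1.48e-05), with -0.49 in the EV-proficient and -0.41 in the EV-deficient libraries. The call in the EV-deficient libraries was lost with upper-quartile scaling (-0.22, edgeR adjusted p = 0.0764).

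Ppm1d (ENSMUSG00000020525, chr11:85311244-85347066, plus strand), the phosphatase that turns off p53 signalling, behaved alike. Its levels were 35.4, 32.9 and 28.6 CPM in EV-proficient DMSO and 23.2, 24.9 and 26.1 CPM in EV-proficient paclitaxel libraries. The EV-deficient values were 38.3, 34.6 and 34.4 CPM under DMSO and 24.8, 29.0 and 23.0 CPM under paclitaxel. Within each label every drug library lay below every control. The averaged log2 fold change was -0.44 ± 0.07 SE (edgeR adjusted p = 5.92e-06).

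Mdm2 (ENSMUSG00000020184, chr10:117688875-117710758, minus strand) was at 80.5, 83.2 and 83.7 CPM in EV-proficient DMSO, 73.5, 68.5 and 83.1 in EV-proficient paclitaxel, 92.8, 84.0 and 87.5 in EV-deficient DMSO and 79.3, 82.3 and 74.8 in EV-deficient paclitaxel libraries. The EV-proficient groups overlapped and the EV-deficient groups did not. The difference was small: -0.15 ± 0.05 SE averaged over the labels (edgeR adjusted p = 0.0109) and lost with upper-quartile scaling (-0.03, edgeR adjusted p = 0.629). Within the labels it did not pass, though the EV-deficient value, -0.16 ± 0.07 SE, passed in 8 and the EV-proficient value, -0.14 ± 0.07 SE, in 4 of the 12 fits that left out a library. The EV-proficient value also passed with median-of-ratios scaling (-0.16), in DESeq2 (-0.16) and against the DMSO libraries of the other label (-0.24), and the EV-deficient value in limma-voom (-0.16), with no low-count filter (-0.20) and with only the groups compared (-0.15). Mdm4 (ENSMUSG00000054387, chr1:132959484-133030561, minus strand) was at 77.9, 59.5 and 61.7 CPM, 65.2, 58.3 and 55.0 CPM, 65.8, 70.7 and 69.2 CPM and 67.3, 70.4 and 55.3 CPM in the same order of groups. Its libraries overlapped, and the averaged value of -0.12 ± 0.07 SE did not pass (edgeR adjusted p = 0.115), but did with no low-count filter (-0.13) and without EV-proficient DMSO replicate 2 (-0.17), EV-proficient paclitaxel replicate 1 (-0.19) or EV-deficient paclitaxel replicate 2 (-0.18). Neither of the direct p53 inhibitors rose under the drug.

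Of the 6 arrest and growth-restraint genes, 2 rose in the averaged comparison (Btg2 by 1.67 and Gadd45a by 1.83 on the log2 scale), 1 fell (Plk2, -0.94) and 3 did not pass, where 68.4% of all genes passed. Btg2 (ENSMUSG00000020423, chr1:134075170-134079120, minus strand), an antiproliferative cofactor of mRNA decay, was at 5.58, 6.10 and 6.55 CPM in EV-proficient DMSO and 16.4, 18.4 and 16.6 CPM in EV-proficient paclitaxel libraries. The EV-deficient libraries held 5.55, 4.90 and 5.63 CPM and 18.7, 22.6 and 16.1 CPM. Drug and control did not overlap, and Btg2 rose in both labels (log2 fold change 1.50 ± 0.13 SE and 1.83 ± 0.13 SE, edgeR adjusted p = 1.76e-09 and 4.2e-11).

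Gadd45a (ENSMUSG00000036390, chr6:67035096-67037457, minus strand), a stress sensor that inhibits the mitotic kinase Cdk1, was at 6.23, 6.82 and 5.68 CPM in EV-proficient DMSO and 23.9, 23.6 and 19.5 CPM in EV-proficient paclitaxel libraries. The EV-deficient values were 8.29, 7.69 and 8.46 CPM and 29.4, 35.4 and 21.0 CPM. Drug and control were far apart, with a log2 fold change of 1.83 ± 0.10 SE averaged over the labels (edgeR adjusted p = 1.19e-12) and nearly the same value in each.

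Plk2 (ENSMUSG00000021701, chr13:110395046-110400844, plus strand), a polo-like kinase induced by stress and among the most abundant members, went the other way. It was at 505, 486 and 478 CPM in EV-proficient DMSO and 289, 294 and 302 CPM in EV-proficient paclitaxel libraries. It was at 586, 569 and 565 CPM and 258, 216 and 306 CPM in the EV-deficient ones, again without overlap. The log2 fold changes were -0.73 ± 0.08 SE and -1.14 ± 0.08 SE (edgeR adjusted p = 1.24e-07 and 1.07e-10). Its relative Plk3 rose in the EV-proficient (0.28 ± 0.07 SE) and fell in the EV-deficient libraries (-0.39 ± 0.07 SE), from 60.8 ± 1.77 to 73.7 ± 2.06 CPM and from 70.3 ± 4.13 to 53.6 ± 5.13 CPM (means ± SD, n = 3, here and below). Against the DMSO libraries of the other label the EV-proficient rise of Plk3 was lost (0.07, edgeR adjusted p = 0.436).

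Ccng1, cyclin G1, which takes part in Mdm2 feedback and carries the best p53 element of the promoters above, stayed within 94.2 to 118 CPM over all 12 libraries. Its log2 fold change was -0.15 ± 0.07 SE in the EV-proficient and -0.02 ± 0.07 SE in the EV-deficient libraries, and neither passed. It depends on the processing: median-of-ratios scaling gave -0.17 in the EV-proficient libraries (edgeR adjusted p = 0.0405), and upper-quartile scaling turned the EV-deficient value to 0.16 (edgeR adjusted p = 0.0374). Against the DMSO libraries of the other label the EV-deficient value kept its negative sign and passed (-0.19, edgeR adjusted p = 0.0241). The EV-proficient value also passed in DESeq2 (-0.17), with the replicate block (-0.15) and in 5 of the 12 fits that left out a library, down to -0.26 without EV-proficient paclitaxel replicate 1. Zmat3, an RNA-binding regulator of splicing, lay within 35.8 to 42.1 CPM in all libraries and did not pass in any comparison.

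Of the 11 death genes, 5 rose in the averaged comparison (Trp53inp1 by 4.14, Eda2r by 2.22, Fas by 1.10, Bbc3 by 0.55 and Pmaip1 by 0.19 on the log2 scale), 2 fell (Aen, -1.26, and Tnfrsf10b, -0.27) and 4 did not pass; the share of all genes that passed was 68.4%. Trp53inp1 (ENSMUSG00000028211, chr4:11156431-11174379, plus strand), a p53-inducible nuclear protein of stress responses and autophagy, changed more than any other member in every paclitaxel comparison. It was at 2.56, 1.48 and 1.58 CPM in EV-proficient DMSO and 36.6, 28.1 and 32.5 CPM in EV-proficient paclitaxel libraries. In the EV-deficient libraries it was at 2.18, 2.15 and 2.78 CPM and 41.9, 52.4 and 34.5 CPM. The lowest drug library, at 28.1 CPM, lay far above the highest control, at 2.78 CPM. The log2 fold changes were 4.10 ± 0.19 SE and 4.18 ± 0.18 SE (edgeR adjusted p = 1.89e-13 and 3.49e-14).

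Aen (ENSMUSG00000030609, chr7:78895854-78911209, plus strand), an apoptosis-enhancing nuclease whose promoter is shown above, fell in both labels. It was at 82.8, 89.1 and 84.6 CPM in EV-proficient DMSO and 39.4, 41.0 and 38.8 CPM in EV-proficient paclitaxel libraries, and at 97.4, 94.4 and 94.8 CPM and 33.9, 31.5 and 41.7 CPM in the EV-deficient ones. Every drug library was at less than 42 CPM and every control above 82. The log2 fold changes were -1.11 ± 0.08 SE and -1.42 ± 0.08 SE (edgeR adjusted p = 2.11e-10 and 2.67e-12).

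The BH3-only genes, whose products neutralise survival proteins of the Bcl2 family, differed from each other. Pmaip1 (ENSMUSG00000024521), which encodes Noxa, was at 165, 182 and 176 CPM in EV-proficient DMSO and 291, 253 and 291 CPM in EV-proficient paclitaxel libraries, a rise without overlap (0.67 ± 0.07 SE, edgeR adjusted p = 1.58e-08). In the EV-deficient libraries it was at 249.6, 232 and 248 CPM under DMSO and 210.0, 193 and 191 CPM under paclitaxel, a fall without overlap (-0.29 ± 0.07 SE, edgeR adjusted p = 0.000504). That fall was lost with upper-quartile scaling (-0.11, edgeR adjusted p = 0.13). With the DMSO libraries of the other label as the reference it became a rise of 0.18 (edgeR adjusted p = 0.0198). Bbc3, which encodes Puma, went from 7.75 ± 1.52 to 12.9 ± 2.36 CPM in the EV-proficient libraries (0.75 ± 0.17 SE, edgeR adjusted p = 0.000894) and from 7.21 ± 1.84 to 9.20 ± 0.946 CPM in the EV-deficient ones (0.35 ± 0.17 SE, edgeR adjusted p = 0.081). The EV-deficient value passed with upper-quartile scaling (0.54), with the filter at 1 CPM in 3 libraries (0.42), with the replicate block (0.36) and without EV-deficient DMSO replicate 3 (0.56).

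The 3 receptor genes in the death group were scattered as well. Tnfrsf10b, the mouse receptor for the ligand TRAIL, was at 86.3 ± 4.08 CPM in EV-proficient DMSO and 57.1 ± 1.00 CPM in EV-proficient paclitaxel libraries, a fall (-0.60 ± 0.06 SE, edgeR adjusted p = 4.44e-08). The EV-deficient means were 70.5 ± 2.02 and 73.0 ± 3.65 CPM and did not differ beyond their spread (0.05 ± 0.06 SE). Here too the reference mattered: upper-quartile scaling gave 0.24 in the EV-deficient libraries (edgeR adjusted p = 0.00153), and the DMSO libraries of the other label gave -0.24 (edgeR adjusted p = 0.00202).

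Fas (ENSMUSG00000024778, chr19:34290666-34327772, plus strand), the receptor of Fas ligand, was barely expressed: 9, 12 and 17 counts in EV-proficient DMSO, 5, 36 and 2 in EV-proficient paclitaxel, 13, 18 and 17 in EV-deficient DMSO and 100, 45 and 128 in EV-deficient paclitaxel libraries. In CPM these are 0.219, 0.287 and 0.497, then 0.0988, 0.632 and 0.0809, then 0.232, 0.375 and 0.373, then 1.86, 0.973 and 2.10. All 3 EV-deficient drug libraries were above every other library, and EV-proficient paclitaxel replicate 2 stood apart from the other 2 of its group. The rise in the EV-deficient libraries was 2.34 ± 0.53 SE (edgeR adjusted p = 0.000625), while the EV-proficient value was -0.15 ± 0.60 SE. Without EV-proficient paclitaxel replicate 2 the EV-proficient value became a fall of -1.86 (edgeR adjusted p = 0.0218), and the averaged value, 1.10 ± 0.40 SE in all libraries, went to 0.23 (edgeR adjusted p = 0.65). The averaged call was also lost without EV-deficient paclitaxel replicate 1 (1.02) or 3 (0.96), and in limma-voom (0.89, adjusted p = 0.0895).

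Eda2r (ENSMUSG00000034457, chrX:97333840-97377216, minus strand), a receptor of the ligand ectodysplasin A2, had 4, 4 and 0 counts in EV-proficient DMSO and 25, 42 and 22 in EV-proficient paclitaxel libraries. It had 11, 15 and 8 counts in EV-deficient DMSO and 29, 26 and 24 in EV-deficient paclitaxel libraries. In CPM these are 0.0974, 0.0957 and 0, then 0.494, 0.738 and 0.890, then 0.196, 0.313 and 0.175, then 0.540, 0.562 and 0.393. The groups of either label did not overlap, and the rise passed in the EV-proficient libraries (3.33 ± 0.65 SE, edgeR adjusted p = 0.00015) but not in the EV-deficient ones (1.12 ± 0.54 SE, edgeR adjusted p = 0.0776). The EV-deficient value passed with upper-quartile scaling (1.30, edgeR adjusted p = 0.0411), with only the groups compared (1.13, edgeR adjusted p = 0.0421) and against the DMSO libraries of the other label (2.84, edgeR adjusted p = 0.000725). Of the libraries, all 6 with paclitaxel but 1 of the 6 with DMSO reached the 0.209 CPM that the low-count filter asks for, so Eda2r was tested because it was high with the drug, and its calls carry that limit. At 8 counts over 3 controls, the size of the EV-proficient change depends on how the fit treats low counts.

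The other 4 death genes moved little. Perp, a membrane protein of cell junctions and the most abundant member per length, lay within 224 to 279.9 CPM, Ei24, a protein of the endoplasmic reticulum, within 48.8 to 57.4 CPM, and Phlda3, which restrains the kinase Akt, within 12.2 to 18.0 CPM. None of these 3 passed in any comparison, but Perp passed with upper-quartile scaling in the EV-proficient libraries (0.19, edgeR adjusted p = 0.0165) and Phlda3 in the EV-deficient ones without EV-deficient paclitaxel replicate 3 (-0.30, edgeR adjusted p = 0.0302). Cdip1, a regulator of stress-induced death, rose from 20.8 ± 1.91 to 26.1 ± 1.66 CPM in the EV-proficient libraries (0.33 ± 0.10 SE, edgeR adjusted p = 0.00668). The value was 0.22 without EV-proficient paclitaxel replicate 2 (edgeR adjusted p = 0.103), and 0.26 without EV-proficient DMSO replicate 3 (edgeR adjusted p = 0.0515), and 0.08 against the DMSO libraries of the other label (edgeR adjusted p = 0.523). Upper-quartile scaling gave averaged values that passed for Cdip1 (0.23) and Perp (0.15), and with no low-count filter the interaction of Perp passed (-0.27).

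All 5 repair genes rose in the averaged comparison, beside 37.1% of all genes, with log2 fold changes of 0.66 for Xpc, 0.57 for Ddb2, 0.32 for Polk, 0.23 for Ercc5 and 0.22 for Rrm2b. Xpc (ENSMUSG00000030094, chr6:91489305-91515888, minus strand), which recognises bulky DNA damage, was at 22.8, 21.2 and 22.4 CPM in EV-proficient DMSO and 46.9, 49.6 and 34.2 CPM in EV-proficient paclitaxel libraries. It was at 27.1, 26.6 and 27.5 CPM and 34.2, 38.1 and 30.8 CPM in the EV-deficient ones. The rise was larger in the EV-proficient (0.98 ± 0.11 SE) than in the EV-deficient libraries (0.34 ± 0.11 SE), with an interaction that passed (-0.64 ± 0.15 SE, edgeR adjusted p = 0.00161).

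Ddb2 (ENSMUSG00000002109, chr2:91211572-91236982, minus strand), its partner in the recognition of ultraviolet damage, was at 5.84, 5.79 and 5.85 CPM in EV-proficient DMSO and 12.3, 13.5 and 11.8 CPM in EV-proficient paclitaxel libraries, a clear separation (1.11 ± 0.15 SE, edgeR adjusted p = 1.88e-06). EV-deficient libraries held 7.42, 7.86 and 8.57 CPM and 6.44, 10.6 and 7.38 CPM, which overlapped (0.03 ± 0.15 SE, edgeR adjusted p = 0.856). Against the DMSO libraries of the other label, the EV-deficient value was 0.48 (edgeR adjusted p = 0.00931).

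The other 3 repair genes changed less. Polk, a polymerase that copies across damaged bases, rose in both labels (0.36 ± 0.08 SE and 0.28 ± 0.08 SE, edgeR adjusted p = 0.000414 and 0.00298), from 29.5 ± 1.02 to 37.8 ± 1.49 CPM and from 29.9 ± 1.49 to 36.3 ± 2.94 CPM. Ercc5, the nuclease Xpg, passed in the EV-deficient libraries (0.27 ± 0.09 SE, edgeR adjusted p = 0.0116) and not in the EV-proficient ones (0.19 ± 0.09 SE). The EV-deficient call was lost without EV-deficient DMSO replicate 3 (0.20, edgeR adjusted p = 0.109) and with no low-count filter (0.23), and the EV-proficient value passed with upper-quartile scaling (0.25). Rrm2b, the p53-inducible subunit of ribonucleotide reductase, rose in the EV-deficient libraries from 20.5 ± 0.863 to 29.6 ± 0.930 CPM (0.53 ± 0.08 SE, edgeR adjusted p = 1.08e-05) and was at 26.0 ± 2.27 and 24.5 ± 1.85 CPM in the EV-proficient ones (-0.08 ± 0.09 SE). Against the DMSO libraries of the other label the EV-proficient value turned to 0.26 (edgeR adjusted p = 0.0138) and the EV-deficient one no longer passed (0.19, edgeR adjusted p = 0.0561).

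Of the 6 metabolic genes, 4 rose in the averaged comparison (Ak1 by 1.77, Sesn1 by 1.05, Pltp by 0.80 and Dcxr by 0.50 on the log2 scale), 1 fell (Tigar, -0.70) and Sesn2 did not pass, again beside 68.4% of all genes. Sesn1 (ENSMUSG00000038332, chr10:41809935-41908424, plus strand), a sestrin that restrains the growth kinase complex mTORC1, was at 8.62, 8.83 and 9.42 CPM in EV-proficient DMSO and 17.7, 16.6 and 18.0 CPM in EV-proficient paclitaxel libraries, and at 9.17, 9.48 and 8.09 CPM and 21.0, 22.5 and 15.9 CPM in the EV-deficient ones. Every drug library was above every control, with log2 fold changes of 0.96 ± 0.12 SE and 1.15 ± 0.12 SE (edgeR adjusted p = 5.6e-07 and 2.17e-08).

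Its relative Sesn2 (ENSMUSG00000028893, chr4:132492032-132510501, minus strand) crossed over. It was at 28.7, 31.4 and 32.4 CPM in EV-proficient DMSO and 45.2, 48.3 and 47.4 CPM in EV-proficient paclitaxel libraries (0.61 ± 0.07 SE, edgeR adjusted p = 4.03e-07). In the EV-deficient libraries it was at 40.5, 43.9 and 47.0 CPM under DMSO and 33.9, 32.4 and 33.4 CPM under paclitaxel (-0.39 ± 0.07 SE, edgeR adjusted p = 7.49e-05). Neither pair of groups overlapped, but the EV-proficient paclitaxel libraries overlapped the EV-deficient DMSO libraries, and against the DMSO libraries of the other label the values were 0.10 and 0.11, neither of which passed (edgeR adjusted p = 0.241 and 0.198). The averaged value, 0.11 ± 0.05 SE, passed with upper-quartile scaling (0.23, edgeR adjusted p = 0.000686) and with the filter at 1 CPM in 3 libraries (0.15, edgeR adjusted p = 0.0139).

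Tigar (ENSMUSG00000038028, chr6:127085116-127109557, minus strand), a phosphatase that lowers glycolytic flux, fell in both labels. It was at 55.1, 54.5 and 51.3 CPM in EV-proficient DMSO and 30.4, 29.8 and 30.2 CPM in EV-proficient paclitaxel libraries, and at 48.6, 50.1 and 47.7 CPM and 33.0, 33.5 and 32.4 CPM in the EV-deficient ones. The groups lay far apart (-0.83 ± 0.07 SE and -0.57 ± 0.06 SE, edgeR adjusted p = 5.42e-10 and 9.89e-08).

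Pltp (ENSMUSG00000017754, chr2:164839518-164857711, minus strand), which transfers phospholipids between lipoproteins, was at 4.09, 4.76 and 4.94 CPM in EV-proficient DMSO and 2.98, 3.36 and 3.48 CPM in EV-proficient paclitaxel libraries. Among EV-deficient libraries it was at 1.41, 2.06 and 2.13 CPM and 7.75, 9.03 and 7.11 CPM. It was thus lower with the drug in one label (-0.49 ± 0.18 SE, edgeR adjusted p = 0.0204) and higher in the other (2.10 ± 0.18 SE, edgeR adjusted p = 1.29e-09). The EV-proficient call was lost without EV-proficient DMSO replicate 2 (-0.47) or 3 (-0.44) or EV-proficient paclitaxel replicate 1 (-0.48), and the value turned to 0.81 against the DMSO libraries of the other label (edgeR adjusted p = 0.00073).

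Dcxr (ENSMUSG00000039450, chr11:120725399-120727281, minus strand), a carbonyl reductase, was at 2.58, 3.59 and 3.74 CPM in EV-proficient DMSO and 7.94, 7.61 and 5.22 CPM in EV-proficient paclitaxel libraries, and rose there (1.08 ± 0.19 SE, edgeR adjusted p = 5.34e-05). The EV-deficient libraries, at 4.57, 4.88 and 4.45 CPM and 3.91, 5.45 and 3.79 CPM, overlapped (-0.08 ± 0.19 SE). Ak1 (ENSMUSG00000026817, chr2:32621758-32635058, plus strand), adenylate kinase, was at 0.414, 0.478 and 0.234 CPM and 0.830, 0.668 and 1.09 CPM in the EV-proficient DMSO and paclitaxel libraries and at 0.250, 0.542 and 0.263 CPM and 2.09, 1.71 and 1.75 CPM in the EV-deficient ones. Drug and control did not overlap, and it rose in both labels (1.15 ± 0.39 SE and 2.39 ± 0.37 SE, edgeR adjusted p = 0.0153 and 8.37e-06). The EV-proficient call was lost without EV-proficient DMSO replicate 3 (0.92) or EV-proficient paclitaxel replicate 3 (0.93).

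**Figure D2:**
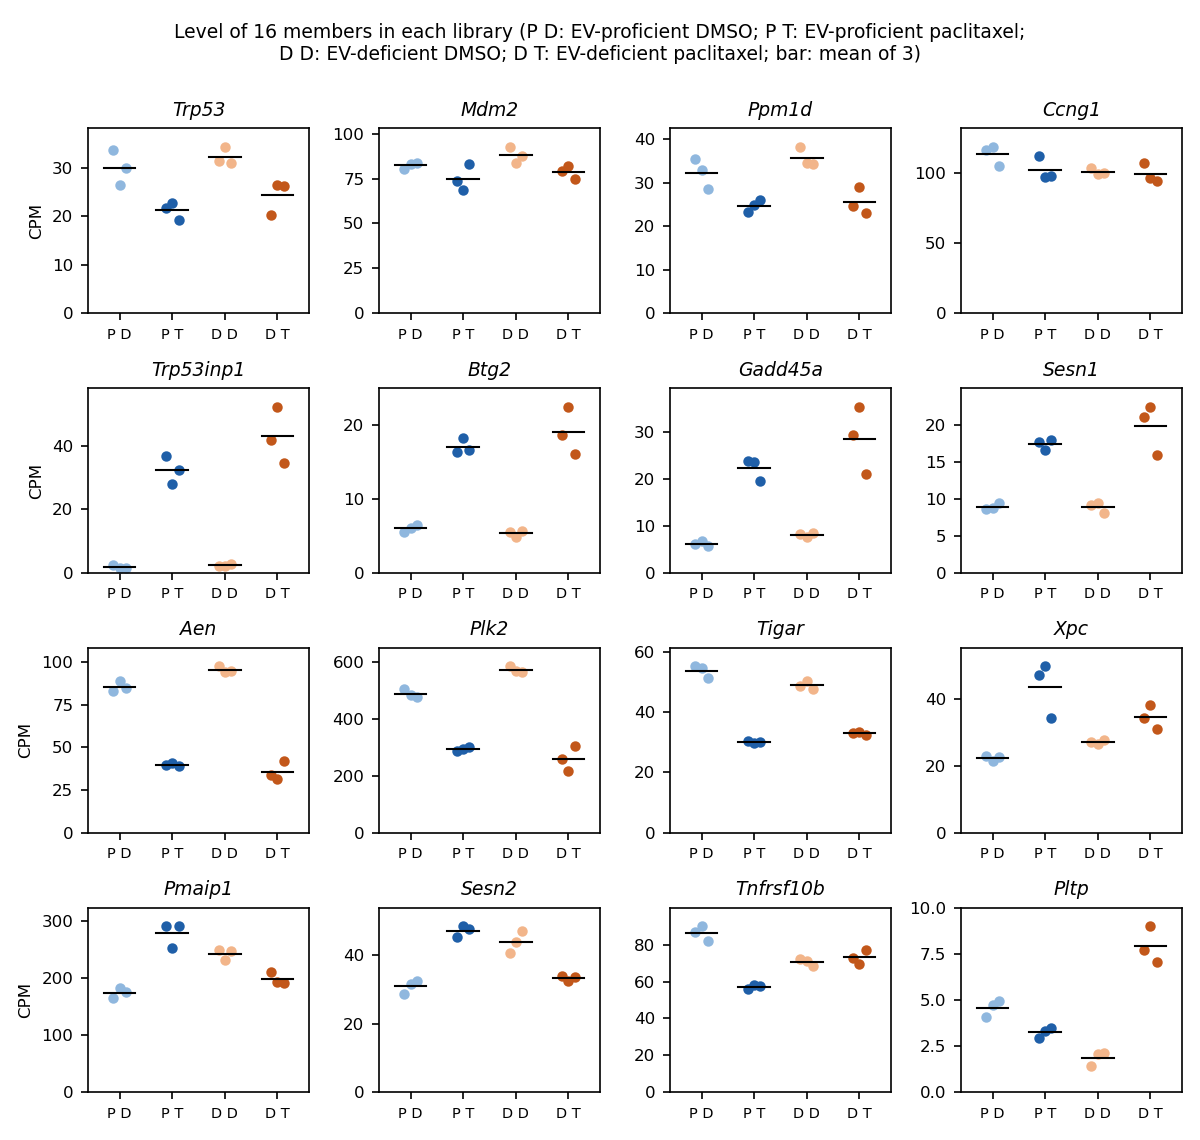
Level of 16 members in each of the 12 libraries, in CPM on linear axes that start at 0. P D and P T are EV-proficient DMSO and paclitaxel, D D and D T are EV-deficient DMSO and paclitaxel, points are libraries and bars the mean of 3. Trp53inp1, Btg2, Gadd45a and Sesn1 are higher with the drug in both labels, Trp53, Ppm1d, Aen, Plk2 and Tigar lower, and Pmaip1, Sesn2 and Pltp cross over.

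The difference between the EV labels was compared within each treatment. Under DMSO, 8 members passed, 5 higher and 3 lower in the EV-deficient libraries, against 23.0% of all genes (12.4% higher and 10.6% lower). The split was 3 and 3 with median-of-ratios and 2 and 4 with upper-quartile scaling. The count was 15 (10 higher and 5 lower) when only the groups compared were fitted, where the calls over all genes went from 4162 to 5697. It was 5 without any one of the 3 EV-proficient DMSO libraries or without EV-deficient DMSO replicate 1 or 2. Under paclitaxel 14 passed, 7 in each direction, against 37.8% of all genes (16.0% higher and 21.8% lower); upper-quartile scaling gave 9 higher and 5 lower. Without EV-proficient paclitaxel replicate 2 the count was 8. None of the 4 genes of p53 and its regulators passed under either treatment: Trp53 differed by 0.10 ± 0.10 SE under DMSO and 0.19 ± 0.11 SE under paclitaxel. With upper-quartile scaling the value for Trp53 under paclitaxel was 0.29 (edgeR adjusted p = 0.0445), and without EV-deficient paclitaxel replicate 1 it was 0.30 (edgeR adjusted p = 0.0331).

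The 7 members that passed under both treatments, as 15.7% of all genes did (Pmaip1, Sesn2, Plk3, Ddb2, Pltp, Tnfrsf10b and Rrm2b), all changed sign between them. Pmaip1, Sesn2, Plk3 and Ddb2 were higher in the EV-deficient libraries under DMSO and lower there under paclitaxel. For Pmaip1 the values were 0.48 ± 0.07 SE and -0.49 ± 0.07 SE (edgeR adjusted p = 1.12e-05 and 5.47e-06), and for Sesn2 0.51 ± 0.07 SE and -0.50 ± 0.07 SE (edgeR adjusted p = 2.43e-05 and 1.82e-05). Pltp, Tnfrsf10b and Rrm2b were lower under DMSO and higher under paclitaxel. Pltp had the largest reversal, -1.31 ± 0.18 SE and 1.29 ± 0.17 SE (edgeR adjusted p = 1.28e-05 and 5.54e-06). This is the pattern of the whole table: of the 2834 genes that passed under both treatments, 3.95% kept their sign, and of all genes tested 32.9% did, beside 12 of the 32 members. The DMSO calls of Plk3 and Ddb2 were lost in 9 and 10 of the 12 fits that left out a library, at values from 0.17 to 0.24 and from 0.40 to 0.50. Upper-quartile scaling also ended both (0.18 and 0.42), median-of-ratios scaling that of Plk3 (0.19) and limma-voom that of Ddb2 (0.44). Rrm2b no longer passed under DMSO without EV-proficient DMSO replicate 2 (-0.27), nor under paclitaxel without EV-proficient paclitaxel replicate 2 (0.22).

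**Figure D3:**
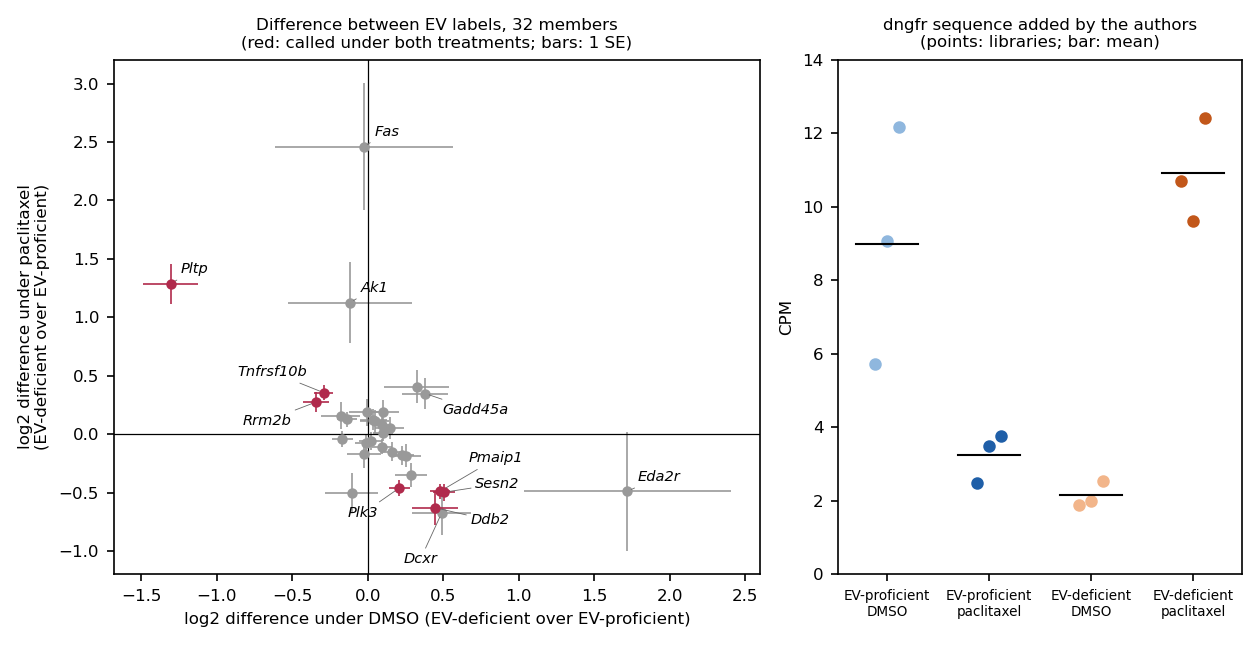
Left, the log2 difference between EV-deficient and EV-proficient libraries under DMSO (x axis) and under paclitaxel (y axis) for the 32 members, with 1 SE on each axis and the 7 members that passed under both treatments in red. Right, CPM of the dngfr sequence in each library, with the mean of 3 as a bar. The 7 red members lie at upper left and lower right, and dngfr is high in EV-proficient DMSO and EV-deficient paclitaxel.

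Averaged over both treatments, 1 member differed between the labels, against 9.60% of all genes (3.41% higher and 6.20% lower). It was Gadd45a, higher in the EV-deficient libraries by 0.36 ± 0.10 SE (edgeR adjusted p = 0.0275), with all 3 EV-deficient DMSO libraries above the EV-proficient ones but overlapping groups under paclitaxel. The call was lost in 6 of the 12 fits that left out a library (without replicate 3 of EV-proficient DMSO, EV-proficient paclitaxel or EV-deficient DMSO, replicate 1 of EV-deficient DMSO, or replicate 1 or 2 of EV-deficient paclitaxel), down to 0.26, and in limma-voom (0.33, adjusted p = 0.129).

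The paclitaxel effect itself differed between the labels for 15 members by the interaction term, against 40.7% of all genes (16.9% higher and 23.8% lower). It was more positive in the EV-deficient libraries for 5 and less positive or more negative for 10, but 7 and 6 with upper-quartile scaling. Pltp had the largest term (2.59 ± 0.25 SE, edgeR adjusted p = 3.74e-08), followed by Fas (2.49 ± 0.80 SE, edgeR adjusted p = 0.0166) and Eda2r (-2.21 ± 0.85 SE, edgeR adjusted p = 0.044). The terms of Fas and Eda2r rest on few counts. That of Eda2r was lost in 8 of the 12 fits that left out a library, at values from -2.325 to -1.718. It was also lost with the replicate block (-2.23, edgeR adjusted p = 0.054), with upper-quartile scaling (-2.09, edgeR adjusted p = 0.0578) and with no low-count filter (-2.27, edgeR adjusted p = 0.0544). Without EV-proficient DMSO replicate 3 the terms of Fas and Eda2r were 2.09 (edgeR adjusted p = 0.0653) and -1.72 (edgeR adjusted p = 0.103). Of the 7 members that rose in both labels the interaction passed for Xpc, and of the 5 that fell in both it passed for Plk2, Aen and Tigar. Of these, the term of Aen was lost in 8 of the 12 fits that left out a library, at values from -0.32 to -0.18, and in 4 other settings. That of Tigar was lost in 5 of the 12, at values from 0.23 to 0.27, and with no low-count filter (0.20). That of Plk2 was lost with upper-quartile scaling (-0.29). The interaction did not pass for Trp53inp1, Gadd45a, Btg2 and Sesn1, at 0.08 ± 0.26 SE, -0.03 ± 0.20 SE, 0.34 ± 0.18 SE and 0.19 ± 0.17 SE, nor for Ak1 at 1.24 ± 0.54 SE, which passed with the filter at 1 CPM in 3 libraries (1.31) and in 3 of the 12 fits that left out a library, from 1.45 to 1.67. Btg2 passed with upper-quartile scaling (0.46, edgeR adjusted p = 0.0429) and without EV-deficient paclitaxel replicate 3 (0.49, edgeR adjusted p = 0.0239), as did Sesn1 without that library (0.37, edgeR adjusted p = 0.0436).

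Genes that act on p53, 26 in all, were read beside the members. They were kinases, cofactors, ubiquitin enzymes and relatives of p53; 25 were in the table under these names and 23 were tested. In the averaged paclitaxel comparison 4 rose and 14 fell, beside 37.1% and 31.3% of all genes, with a median of -0.19 beside 0.07 for all genes. Chek1, a DNA-damage kinase, fell from 33.4 ± 0.988 to 20.6 ± 1.78 CPM and from 34.8 ± 1.29 to 16.0 ± 3.15 CPM (-0.91 ± 0.08 SE averaged). Mapk14, the stress kinase p38 alpha, and Rchy1, a ubiquitin ligase for p53, fell by 0.68 and 0.67 on the log2 scale. Cdkn2a, whose Arf product inhibits Mdm2, rose from 88.4 ± 18.9 to 166 ± 2.72 CPM and from 99.8 ± 13.3 to 133 ± 2.60 CPM (0.66 ± 0.08 SE averaged). Chek2 and Cul9 were added after their values were seen. Chek2, the other checkpoint kinase, rose by 0.40 ± 0.06 SE on average. It rose by 0.71 in the EV-proficient libraries (21.4 to 35.1 CPM). In the EV-deficient ones the value of 0.09 did not pass (24.6 to 26.1 CPM). Cul9, a p53-binding cullin, was low and crossed over. It changed by -1.60 ± 0.27 SE in the EV-proficient libraries (2.23 to 0.743 CPM) and by 2.89 ± 0.26 SE in the EV-deficient ones (0.670 to 4.98 CPM).

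A further list held 28 other reported p53 targets, of which 27 were tested. In the averaged comparison 11 rose and 12 fell, beside 37.1% and 31.3% of all genes, with a median of -0.08 beside the same 0.07. Within each label 13 rose and 11 fell, where 31.1% and 27.1% of all genes did so in the EV-proficient and 32.4% and 30.5% in the EV-deficient libraries, with medians of the other sign: 0.13 beside 0.05 for all genes in the EV-proficient and 0.23 beside 0.07 in the EV-deficient libraries. Ddit4, an inhibitor of mTORC1, rose most (2.33 ± 0.11 SE), from 9.62 ± 1.92 to 99.3 ± 4.05 CPM and from 22.7 ± 3.73 to 55.7 ± 16.3 CPM. Gdf15, a secreted stress cytokine, stayed below 1 CPM in every group mean (1.77 ± 0.57 SE), and Cyfip2, a regulator of actin, rose by 1.63 ± 0.10 SE. Those that fell most, chosen after their values were seen, were Sfn, an inhibitor of entry into mitosis (-1.52 ± 0.06 SE), and Bax, an effector of mitochondrial cell death (-0.68 ± 0.07 SE). The fall of Sfn was larger in the EV-deficient libraries (328 to 53.5 CPM) than in the EV-proficient ones (162 to 121 CPM). Cdkn1a, the Cdk inhibitor p21 and the best known arrest target, went from 39.0 ± 2.77 to 52.3 ± 3.69 CPM in the EV-proficient and from 40.6 ± 2.60 to 30.6 ± 4.80 CPM in the EV-deficient libraries, with no averaged change (0.01 ± 0.07 SE, edgeR adjusted p = 0.912).

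For 8 members, exons overlap those of a gene on the opposite strand in the GENCODE M21 annotation of GRCm38: Cdip1, Ddb2, Ei24, Gadd45a, Plk3, Pltp, Rrm2b and Tigar. The libraries were stranded, but whether the counting used strand is not given in the sources used here, so their counts are uncertain to that extent. Pltp shares 495 exonic bases with Ctsa, which averaged 97.5 CPM and rose in both labels (0.59 and 0.63), without the crossing seen for Pltp (interaction 0.04). Ddb2 shares 652 bases with Acp2, whose paclitaxel effects were -0.08 and -0.03. Gadd45a shares 337 bases with E230016M11Rik, which averaged 0.540 CPM, below the level of Gadd45a in every library, and rose in the EV-proficient libraries (1.36 ± 0.48 SE) but did not pass in the EV-deficient ones (0.18 ± 0.45 SE). Cdip1 shares 892 bases with Hmox2, which averaged 31.5 CPM and fell in both labels (-0.34 and -0.38), where Cdip1 rose in the EV-proficient libraries.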

How the data were processed

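RNA of the 12 samples was made into stranded poly(A) libraries with a TruSeq kit, per the labels' protocols. Reads were aligned with STAR 2.5.0a to GRCm38, per the submitters' processing notes; the counting program, its annotation and its use of strand are not given in the sources used here. The deposited table holds whole-number counts per gene for each sample, as the authors made them, for 55421 genes and 2 added rows (dngfr and gfp), which stayed out of library sizes and tests.

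Libraries were scaled by TMM and genes filtered with filterByExpr (minimum count 10), leaving 18108 of the 35104 genes with any count. All 4 groups shared 1 fit of edgeR's quasi-likelihood model (edgeR 4.0.16, R 4.3.3), without the replicate number, and 7 comparisons were drawn from it, each adjusted by Benjamini-Hochberg over all genes tested with a threshold of 0.05. The script was tested on simulated counts. Values per library are CPM with TMM-scaled library sizes; values per length also divide by exon length. Scaling factors ran from 0.890 to 1.15.

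The members, their roles and the other gene lists were chosen with earlier results of these data known. Values in every library are given for p53 and its regulators and for members past 0.8 on the log2 scale in a called comparison; the others are given as means or ranges. Gene positions come from the GENCODE annotation of GRCm38. Alternatives were 2 other scalings, 2 other filters, DESeq2 1.42.0, limma-voom (limma 3.58.1), a fit on only those groups being compared, one with replicate numbers as a block, and each library left out. The DMSO libraries of the other label as the reference were added after the data were seen.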

Additional observations from a re-analysis of the deposited data

Results flagged for a closer look

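For 15 members the paclitaxel effect differed between the EV labels by the interaction term of the edgeR fit, given here as the log2 effect in EV-deficient minus that in EV-proficient libraries. Of all genes tested, 40.7% did so. The term was positive for Pltp (2.593), Fas (2.485), Tnfrsf10b (0.6478), Rrm2b (0.6171) and Tigar (0.2664). It was negative for Eda2r (-2.209), Dcxr (-1.166), Ddb2 (-1.076), Sesn2 (-1.002), Pmaip1 (-0.9683), Plk3 (-0.6699), Xpc (-0.6394), Cdip1 (-0.4384), Plk2 (-0.4086) and Aen (-0.3114). In the fits that left out 1 of the 12 libraries, the term of Aen no longer passed in 8 (-0.32 to -0.18). That of Eda2r no longer passed in 8 (-2.325 to -1.718) and that of Tigar in 5 (0.23 to 0.27). For Cdip1 this was so in 3 (-0.35 to -0.34) and for Fas in 1 (2.09). The term of Aen was also lost with median-of-ratios scaling (-0.27), upper-quartile scaling (-0.19), the filter at 1 CPM in 3 libraries (-0.26) and in DESeq2 (-0.27). That of Tigar was lost with no low-count filter (0.20), those of Cdip1 (-0.32) and Plk2 (-0.29) with upper-quartile scaling, and that of Eda2r with upper-quartile scaling (-2.09), no low-count filter (-2.27) and the replicate block (-2.23).

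The dngfr row, which no comparison of the members uses, averaged 10.9 CPM in the EV-deficient paclitaxel libraries and 2.14 CPM in their DMSO controls, while the EV-proficient libraries went the opposite way, from 8.99 to 3.24 CPM. Its part in the differences between the labels was not tested.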

How the results depend on the processing

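Of the 224 values of a member in a comparison, 176 kept their direction and their side of the threshold under each planned setting run for it, leaving out a library aside. Of the 8 settings, the fit on only the groups compared applied to 4 of the 7 comparisons and gave no value for Eda2r in 1 of them, and Eda2r did not pass the filter at 1 CPM in 3 libraries. The count of members differing between the EV labels averaged over both treatments, 1, was 4 with no low-count filter, 2 in DESeq2, 0 in limma-voom and 0 to 3 with 1 library left out; it was 0 without EV-proficient DMSO replicate 3, EV-proficient paclitaxel replicate 3, or replicate 1 of either EV-deficient group. The count under DMSO, 8, was 15 when only the groups compared were fitted, 12 with no low-count filter and 5 to 10 with 1 library left out; the calls over all genes, 4162, were 5697 and 4455 in the first 2 of these. Under paclitaxel, 14, it was 8 to 17, and for the interaction, 15, it was 12 to 16. The paclitaxel counts ran from 20 to 25 in EV-proficient libraries, 19 to 21 in EV-deficient ones and 22 to 25 averaged. Upper-quartile scaling moved the median of all genes by 0.122 in the averaged paclitaxel comparison and 0.123 in the interaction, and turned Ccng1 in the EV-deficient libraries to 0.16. Against the DMSO libraries of the other label, the directions of Pltp (0.81) and Rrm2b (0.26) in EV-proficient and of Pmaip1 (0.18), Sesn2 (0.11) and Tnfrsf10b (-0.24) in EV-deficient libraries turned, and 21 members passed in each label. The cause of these shifts was not tested.

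The replicate number did not pair the libraries: none of 18 same-numbered pairs had correlated deviations above 0.1 (-0.0812 to 0.0970), and a library correlated best with its own number in 16 of 36 cases. With the number as a replicate block, the counts of members were 23 and 20 for paclitaxel in EV-proficient and EV-deficient libraries, 23 averaged, 10 and 14 between the labels under DMSO and paclitaxel, 1 averaged and 14 for the interaction. Counts were low for Eda2r, Fas and Ak1, whose libraries held at most 42, 128 and 112 counts. Replicates of a group differed beyond sampling noise in all 12 pairs (chi-square per degree of freedom 4.49 to 31.3).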
